A study of Mus musculus with 8 samples.

Results

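T cell receptor signalling genes were followed in memory CD4 T cells of mice, as a set of 37 genes that runs from the CD3 chains of the receptor to the NFAT transcription factors and the enzymes that end the signal. The members are a named list, and each was read from the probe sets annotated to its symbol alone, with the brightest probe set over the 8 arrays standing for the gene. A probe set was available for 36 of the 37, all 36 passed the filter on dim signals, and they made up 36 of the 11217 genes tested; Lck was not analysed here. The cells were memory T follicular helper (Tfh) cells and memory T helper 1 (Th1) cells. Tfh cells are the CD4 T cells that help B cells in germinal centres, and Th1 cells are known for making interferon gamma. Both were sorted from spleen at day 60 after infection with LCMV Armstrong, a virus strain that mice clear. They came from mice labelled Rictor-null, which lack the Rictor subunit of the kinase complex mTORC2, or from wild-type (WT) mice. All 4 groups (Rictor-null Tfh, WT Tfh, Rictor-null Th1 and WT Th1) came from infected mice, and each had 2 Affymetrix arrays labelled as biological replicates, each pooled from at least 10 mice. The cells in which Rictor was deleted, the sort gates and the age of the mice are unknown here. So is whether the Tfh and Th1 cells of a genotype came from the same pooled mice. Signals are intensities on a linear scale, and a difference is a difference of group means of log2(signal + 32). Most differences compare 2 arrays with 2. The standard error (SE) of a difference comes from a limma model fitted to all 8 arrays, which pools the spread over groups and genes.

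When the receptor binds a peptide on an MHC molecule, the kinase Lck phosphorylates the CD3 chains, Zap70 docks on them, and Zap70 then phosphorylates the adapters Lat and Lcp2. These gather Plcg1, whose products release calcium, which turns on the NFAT factors, and activate the Ras exchange factor Rasgrp1 and the protein kinase C isoform Prkcq, which signals through Bcl10 and Malt1 to NF-kB. Phosphatases, ubiquitin ligases and diacylglycerol kinases limit the signal. mTORC2 is best known for phosphorylating Akt and several protein kinase C isoforms.

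The members were among the brighter genes. Their mean signals over the 8 arrays ran from 70.3 for Grap2 to 7325 for Ptprc, against array medians of 35.7 to 37.7, and 29 of the 36 lay in the brightest 25% of all genes tested. The sort was visible in Cxcr5, the chemokine receptor of Tfh cells. It read 179 to 297 on the 4 Tfh arrays and 46.8 to 55.7 on the 4 Th1 arrays. Of the 8 Tfh markers listed, Bcl6, Pdcd1, Il21, Tox2 and Sh2d1a were also higher in Tfh cells of both genotypes. Icos passed in neither, and Cd200 went the other way, called in Rictor-null mice (Tfh minus Th1 -0.48, adjusted p = 0.00421 by limma). Tbx21, the Th1 transcription factor, lay at 422 to 465 on all 8 arrays. Ifng, the interferon gamma gene, read 1564 to 1605 on the Tfh and 1421 to 1540 on the Th1 arrays. Of the Th1 markers tested, Cxcr6 alone passed, as higher in Th1 cells in Rictor-null mice (adjusted p = 0.0112). Of the 5 Rictor probe sets, 1, the dimmest, passed a genotype test, being higher by 0.30 on the log2 scale in Tfh cells of Rictor-null mice (adjusted p = 0.0366 by limma over all probe sets kept). Their position relative to the deletion is unknown here, which leaves the genotype labels unchecked. The B cell marker list had 1 of 9 genes above the filter. The median SD between the 2 arrays of a group over the members was 0.0285 in WT Tfh cells and 0.0505 to 0.0601 in the other 3 groups.

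Of the 36 members, 18 passed the limma test (adjusted p under 0.05 over all 11217 genes) in at least 1 of 6 contrasts and 18 passed in none. The contrasts were genotype within each cell type, cell type within each genotype, the difference between the 2 genotype contrasts and their mean. In Tfh cells Prkcq rose in the Rictor-null group by 0.51, in Th1 cells Grap2 fell by 0.33, and Trat1 was lower in Tfh than in Th1 cells by 0.87 in WT and by 0.84 in Rictor-null mice. Those 4 calls held under every one of the 19 other settings tried. Ubash3b rose and Tespa1 fell in the Rictor-null cells of both types.

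The stretch of 250 bases before an annotated transcription start (RefSeq, GRCm38.p6) is shown for Prkcq, Grap2, Trat1 and Ubash3b. These are the genes with the calls that held in every setting and the 1 gene that rose in both cell types. Each stretch lies inside the span annotated for its gene, so the start used is not the outermost one. Each is written 5′ to 3′ on the strand of the gene, and Ubash3b has 2 windows in the table, of which the first is given. Capitals mark the NFAT core GGAAA or its reverse complement, which contains the core GGAA that ETS factors also bind, and the forkhead motif GTAAACA or its reverse complement; the AP-1 motif (TGA, any base, TCA) was searched as well, and both strands were read for all 3.
Prkcq (chr2:11172132-11172381, plus strand): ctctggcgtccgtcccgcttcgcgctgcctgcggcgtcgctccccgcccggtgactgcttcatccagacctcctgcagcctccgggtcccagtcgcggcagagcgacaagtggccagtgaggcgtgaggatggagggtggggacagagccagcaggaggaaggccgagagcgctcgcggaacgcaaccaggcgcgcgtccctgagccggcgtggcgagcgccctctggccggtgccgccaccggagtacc
Grap2 (chr15:80623233-80623482, plus strand): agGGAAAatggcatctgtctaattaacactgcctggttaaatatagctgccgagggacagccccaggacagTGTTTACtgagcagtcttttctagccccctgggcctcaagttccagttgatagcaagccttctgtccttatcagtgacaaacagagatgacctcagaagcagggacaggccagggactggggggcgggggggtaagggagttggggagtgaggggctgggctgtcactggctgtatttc
Trat1 (chr16:48772063-48772312, minus strand): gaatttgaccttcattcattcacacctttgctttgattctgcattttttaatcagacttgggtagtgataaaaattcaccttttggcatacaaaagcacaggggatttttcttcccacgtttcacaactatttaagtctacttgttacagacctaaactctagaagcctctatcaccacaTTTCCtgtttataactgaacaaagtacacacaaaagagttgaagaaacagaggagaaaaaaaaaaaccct
Ubash3b (chr9:41158063-41158312, minus strand): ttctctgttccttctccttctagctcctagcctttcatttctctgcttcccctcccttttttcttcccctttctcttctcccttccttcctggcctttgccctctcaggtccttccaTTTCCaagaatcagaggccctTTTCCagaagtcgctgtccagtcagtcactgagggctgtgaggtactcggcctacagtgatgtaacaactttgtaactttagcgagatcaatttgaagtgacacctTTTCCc
The Prkcq stretch held none of the 3 motifs. Grap2 had 1 NFAT core and 1 forkhead motif, Trat1 had 1 NFAT core and Ubash3b had 3. Such matches are common: the NFAT core occurred in 55.6% of all 32851 windows of this length in the table and in 68.1% of the 47 windows of the 32 members matched by symbol, and the forkhead motif in 3.17% and 6.38%. The AP-1 motif was in 6.75% of all windows and in 0 of the 47. A match describes these letters only.

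The CD3 chains and Cd4 showed no called difference by their brightest probe sets. The alpha and beta chains of the receptor are not members and were not tested. The CD3 chains Cd3e, Cd3d, Cd3g and Cd247 carry the phosphorylation sites of the receptor, and Cd4 is the co-receptor that brings Lck to it. Cd3e had Rictor-null Tfh signals of 2677 and 2842, WT Tfh signals of 2662 and 2588, Rictor-null Th1 signals of 2845 and 2746 and WT Th1 signals of 2652 and 2639. Cd3d read 6507 and 6989, 6176 and 6339, 6451 and 5884, and 6639 and 6233 in the same order of groups. In both genes the 4 groups lay close together. Cd3g had Rictor-null Tfh signals of 4027 and 4208, WT Tfh signals of 3665 and 3771, Rictor-null Th1 signals of 4022 and 3995 and WT Th1 signals of 4250 and 4084, with both WT Tfh arrays the lowest of the 8; its genotype difference in Tfh cells was 0.15 (SE 0.0565, adjusted p = 0.112 by limma). Cd247, the zeta chain, read 1003 and 981 in Rictor-null Tfh and 1156 and 1073 in WT Tfh cells, and 895 and 894 in Rictor-null Th1 against 928 and 1090 in WT Th1 cells. The Rictor-null arrays lay below the WT arrays in each cell type without overlap, and the difference was -0.16 in both (adjusted p = 0.178 in Tfh and 0.21 in Th1 cells, limma). Cd4 had Rictor-null Tfh signals of 414 and 414, WT Tfh signals of 417 and 416, Rictor-null Th1 signals of 446 and 435 and WT Th1 signals of 463 and 442, with a genotype difference in Tfh cells whose 95% interval ran from -0.13 to 0.11.

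The dimmest of the 4 Cd247 probe sets, with a mean of 77.6, gave a difference between the cell types that the brightest did not. The probe sets with means of 160 and 208 are not described here. The dimmest had Rictor-null Tfh signals of 97.7 and 113 and WT Tfh signals of 98.3 and 103. Its Rictor-null Th1 signals were 38.8 and 44.0 and its WT Th1 signals 57.0 and 69.5. All 4 Tfh arrays were above all 4 Th1 arrays, by 0.90 in Rictor-null (adjusted p = 0.000273, limma over all probe sets kept) and 0.48 in WT cells (adjusted p = 0.0106), and it fell in Rictor-null Th1 cells by 0.37 (adjusted p = 0.0222). The brightest probe set was higher in Tfh cells by 0.14 in each genotype and did not pass. Which transcripts the probe sets read was not tested.

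The surface modulators were Cd5 and Cd6, receptors that dampen the signal, and Ptprc (CD45), the phosphatase that keeps Lck ready. Cd6 fell in Rictor-null cells when both cell types were averaged, by 0.21 (SE 0.0466, adjusted p = 0.0112 by limma). It read 907 and 972 in Rictor-null Tfh against 1087 and 1099 in WT Tfh cells, and in the other cell type 1107 and 992 in Rictor-null Th1 against 1220 and 1204 in WT Th1 cells, so the genotypes did not overlap within either cell type. Without WT Tfh replicate 2 the averaged difference had an adjusted p of 0.0566. Cd5 read 1399 and 1517, 1511 and 1452, 1690 and 1561, and 1811 and 1662 in Rictor-null Tfh, WT Tfh, Rictor-null Th1 and WT Th1 cells; the Tfh arrays were the lower ones in each genotype, by 0.22 in WT cells (adjusted p = 0.0537, limma), and it passed nowhere. For Ptprc the probe sets disagreed. Its brightest, at 6877 to 7873 on the 8 arrays, passed nowhere, while a dimmer one with a mean of 614 fell in Rictor-null cells by 0.24 in Tfh (adjusted p = 0.0483) and by 0.35 in Th1 cells (adjusted p = 0.0122).

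In Tfh cells 8 of the 36 members changed with genotype, 5 higher and 3 lower in the Rictor-null group, which is 22.2% beside 13.6% of all genes tested (11.3% higher, 2.28% lower) and 13.2% of the brightest 25% of genes. The 2 genotypes did not overlap, with the Rictor-null pair higher, in 13 members (39.9% of all genes) and, with it lower, in 13 (19.7% of all genes), so a lack of overlap between pairs is common. The median difference of the members was -0.0049 and that of all genes was 0.039. Quantile normalization of the arrays gave 5 calls, 1 higher and 4 lower, and ended those of Trat1, Sos1, Nfatc1 and Ubash3b (adjusted p 0.0517 to 0.113). The split between higher and lower depends on the scaling; the share of rises among all genes that passed went from 83.2% to 63.2%. The smallest two-sided p that permuting 2 arrays against 2 allows is 0.333, and all tests rest on the spread that limma pools over groups and genes.

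Prkcq, the protein kinase C isoform of the T cell synapse, showed the largest difference between genotypes among the members tested in Tfh cells. It read 1862 and 2027 in Rictor-null Tfh and 1363 and 1346 in WT Tfh cells, against Th1 signals of 1571 and 1480 (Rictor-null) and 1574 and 1607 (WT). The Rictor-null Tfh arrays were the highest of the 8 and the WT Tfh arrays the lowest. The difference in Tfh cells was 0.51 (SE 0.0620, 1.42-fold, adjusted p = 0.000415 by limma) and kept an adjusted p of 0.000203 to 0.00916 over the other settings. In Th1 cells it was -0.06 (95% interval -0.20 to 0.08). The difference between the 2 genotype contrasts was 0.57 (SE 0.0876, adjusted p = 0.0138 by limma), 1 of 2 members with such a call (5.56% beside 1.22% of all genes, 0.829% positive and 0.392% negative). Without either WT Tfh array, either Rictor-null Th1 array or WT Th1 replicate 2 that p was 0.0556 to 0.0944, with differences of 0.53 to 0.61. Prkcq is represented by 1 probe set.

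Among the other enzymes and exchange factors, Sos1 rose and Rasgrp1 fell; both load Ras with GTP, Sos1 through the adapter Grb2 and Rasgrp1 through diacylglycerol. Sos1 read 248 and 258 in Rictor-null Tfh against 210 and 205 in WT Tfh cells, and in the other cell type 259 and 249 in Rictor-null Th1 against 258 and 274 in WT Th1 cells. The WT Tfh arrays stood below the other 6, and the genotype difference in Tfh cells was 0.25 (SE 0.0576, adjusted p = 0.018 by limma). Rasgrp1 read 938 and 854 in Rictor-null Tfh against 1124 and 1082 in WT Tfh cells, and in the other cell type 893 and 970 in Rictor-null Th1 against 959 and 1078 in WT Th1 cells. The genotypes did not overlap in Tfh cells and did in Th1 cells, and the difference in Tfh cells was -0.29 (SE 0.0745, adjusted p = 0.0276 by limma). Nfatc1, the NFAT factor that rises with activation, read 1066 and 1041 in Rictor-null Tfh against 889 and 879 in WT Tfh cells, and in the other cell type 972 and 1002 in Rictor-null Th1 against 841 and 919 in WT Th1 cells. All 4 Rictor-null arrays were above all 4 WT arrays, and the difference in Tfh cells was 0.24 (SE 0.0603, adjusted p = 0.0238 by limma). Without Rictor-null Tfh replicate 2 or either WT Tfh array, the Tfh calls of Sos1, Rasgrp1 and Nfatc1 were lost, with adjusted p of 0.0773 to 0.15, 0.122 to 0.182 and 0.0553 to 0.164, respectively; averaging each gene's probe sets ended all 3 as well, at 0.107, 0.0635 and 0.0808, respectively.

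The adapters moved in both directions. Trat1, a transmembrane adapter associated with the receptor, read 639 and 544 in Rictor-null Tfh against 486 and 461 in WT Tfh cells, and in the other cell type 1084 and 1082 in Rictor-null Th1 against 837 and 955 in WT Th1 cells. The Rictor-null arrays were the higher ones in each cell type, by 0.30 in Tfh cells (SE 0.0829, adjusted p = 0.0384 by limma) and by 0.27 in Th1 cells (adjusted p = 0.0673). Themis, needed in thymocytes to set signal strength, read 602 and 635 in Rictor-null Tfh against 713 and 723 in WT Tfh cells, and in the other cell type 622 and 579 in Rictor-null Th1 against 698 and 659 in WT Th1 cells. All 4 Rictor-null arrays were below all 4 WT arrays, and the difference in Tfh cells was -0.21 (SE 0.0615, adjusted p = 0.0495 by limma). Tespa1, an adapter also known from thymic selection, read 298 and 307 in Rictor-null Tfh against 392 and 378 in WT Tfh cells, and in the other cell type 379 and 312 in Rictor-null Th1 against 427 and 472 in WT Th1 cells. It was lower in the Rictor-null group without overlap within each cell type, by 0.32 in Tfh (SE 0.0831, adjusted p = 0.0297 by limma) and by 0.36 in Th1 cells (adjusted p = 0.0195). In Tfh cells the Trat1 call was lost without Rictor-null Tfh replicate 1, either WT Tfh array or either Rictor-null Th1 array (adjusted p 0.0641 to 0.231), the Tespa1 call without any 1 of the 4 Tfh arrays (0.0509 to 0.179) and the Themis call without any 1 of the 8 arrays (0.0586 to 0.248); in Th1 cells the Tespa1 call was lost without Rictor-null replicate 2 or WT replicate 2 (0.114 and 0.148), and with the mean of its probe sets or no filter (0.0582 to 0.0784).

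**Figure D1:**
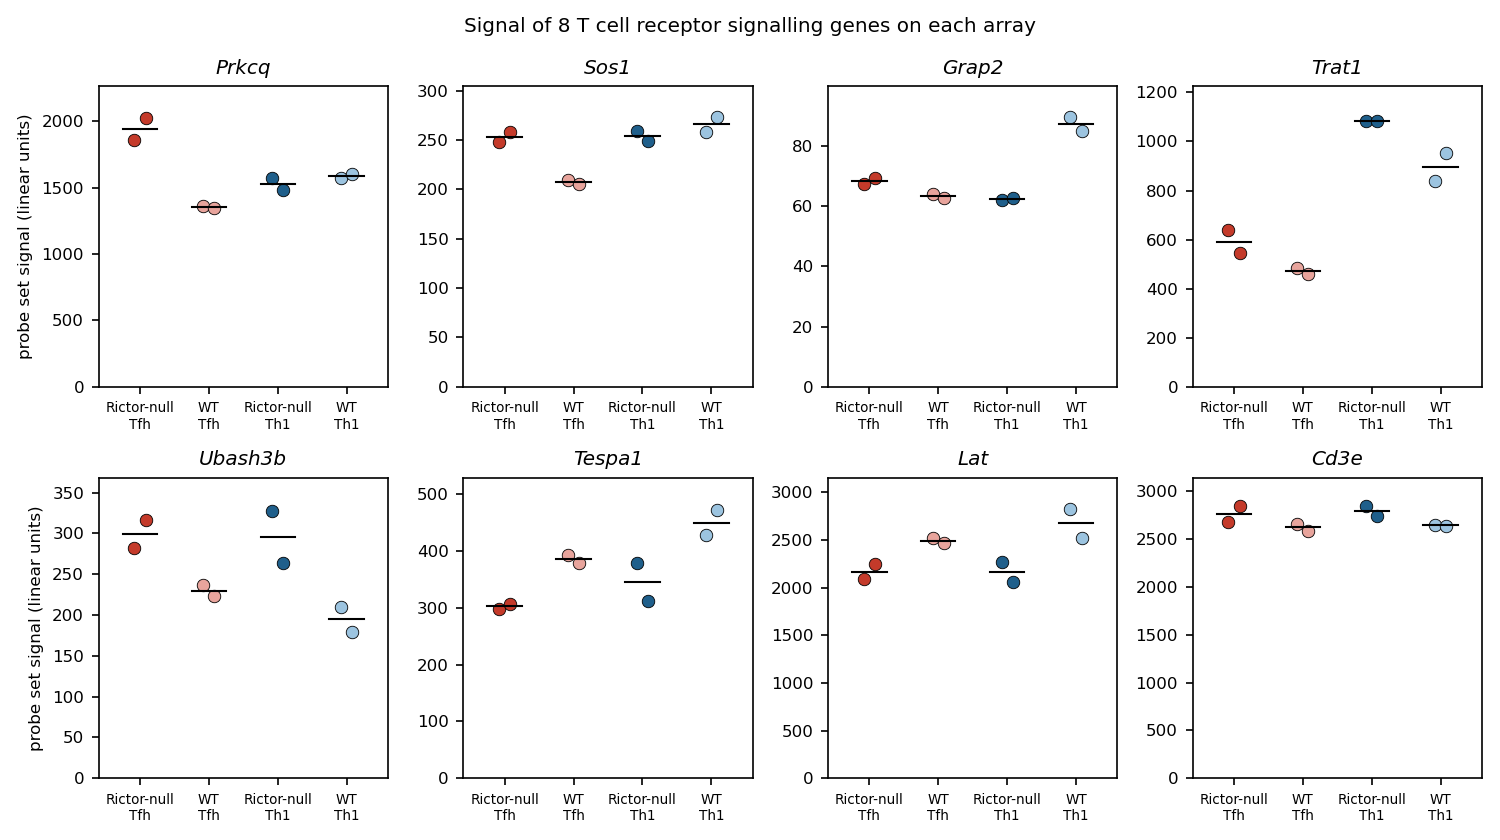
Signal (linear units) of the brightest probe set of 8 members on each array; points are arrays (2 per group), lines are group means, and every axis starts at 0. The Rictor-null Tfh arrays are the highest and the WT Tfh arrays the lowest for Prkcq, the WT Th1 arrays stand above the other 6 for Grap2, and all 4 Th1 arrays lie above all 4 Tfh arrays for Trat1.

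In Th1 cells 5 of the 36 members changed with genotype, 2 higher and 3 lower, which is 13.9% beside 10.5% of all genes (7.54% higher, 2.97% lower) and 12.3% of the brightest 25% of genes. The pairs did not overlap in 7 members with the Rictor-null pair higher (28.3% of all genes) and in 15 with it lower (27.7%). The median over the members was -0.055, and over all genes it was -3.37e-05. Under quantile normalization 8 passed, 1 higher and 7 lower, and with each array divided by its median 6 passed, 3 in each direction. The Th1 contrast shares no array with the Tfh contrast, but whether the 2 share mice is unknown here. Of the 36 members, 26 had the same sign in both (Pearson r 0.58, Spearman correlation 0.61 across genes, which are not independent replicates), beside 58.7% same sign and r 0.48 over all genes tested. Of the members, 6 passed in Tfh and not in Th1 cells, and 3 in Th1 and not in Tfh cells; whether the contrasts differ is given only by the test of the difference itself, which 2 members passed.

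Grap2 (GADS), the adapter that links Lat to Lcp2, was the other member with that difference. It had Rictor-null Tfh signals of 67.4 and 69.4, WT Tfh signals of 63.9 and 62.7, Rictor-null Th1 signals of 62.1 and 62.8 and WT Th1 signals of 89.4 and 84.8. The WT Th1 arrays stood above the other 6, which lay within 62.1 to 69.4. The difference in Th1 cells was -0.33 (SE 0.0545, 1.26-fold on the log2(signal + 32) scale, adjusted p = 0.00259 by limma), in Tfh cells it was 0.07 (95% interval -0.05 to 0.19), and the 2 contrasts differed by 0.41 (SE 0.0771, adjusted p = 0.0309). The test of the difference was lost without any 1 array other than Rictor-null Tfh replicate 1 (0.0659 to 0.196), and with the larger pseudocount tried or the replicate block (0.0668 to 0.0704). Grap2 was the dimmest member, and the size of its Th1 difference moved with the pseudocount, from -0.47 with a pseudocount of 1 to -0.18 with the larger one tried, while the call held in both. Its other probe set, at 25.7 to 36.5, did not pass the filter.

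Lat, the scaffold that Zap70 phosphorylates, read 2274 and 2056 in Rictor-null Th1 against 2831 and 2519 in WT Th1 cells, and in the other cell type 2087 and 2248 in Rictor-null Tfh against 2520 and 2471 in WT Tfh cells. All 4 Rictor-null arrays were below all 4 WT arrays, and the difference was -0.30 in Th1 (SE 0.0748, adjusted p = 0.0273 by limma) and -0.20 in Tfh cells (adjusted p = 0.0999). The adapters Lcp2 and Grb2 passed in no contrast. Malt1, the protease of the complex with Bcl10, read 693 and 635 in Rictor-null Th1 against 556 and 459 in WT Th1 cells, and in the other cell type 448 and 495 in Rictor-null Tfh against 448 and 453 in WT Tfh cells. The Rictor-null Th1 arrays were the highest of the 8, and the difference in Th1 cells was 0.37 (SE 0.0862, adjusted p = 0.0195 by limma); a second probe set gave 0.36 (adjusted p = 0.0376 over all probe sets kept). The Lat call in Th1 cells was lost without either WT Tfh array, Rictor-null Th1 replicate 2 or WT Th1 replicate 1 (0.0552 to 0.221), and the Malt1 call without either Rictor-null Th1 array or WT Th1 replicate 2 (0.0539 to 0.165). With all arrays kept, the Lat call was also lost with a pseudocount of 1 or no filter (0.0569 and 0.0612). The Malt1 call was lost with quantile normalization or no filter (0.0559 and 0.0612).

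Of the 8 negative regulators, Ubash3b (STS-1), a phosphatase that acts on Zap70, rose in both cell types. It read 282 and 316 in Rictor-null Tfh against 236 and 223 in WT Tfh cells, and in the other cell type 328 and 263 in Rictor-null Th1 against 210 and 179 in WT Th1 cells. All 4 Rictor-null arrays were above all 4 WT arrays, by 0.34 in Tfh (SE 0.0985, adjusted p = 0.0456 by limma) and by 0.53 in Th1 cells (adjusted p = 0.00608). The Tfh call was lost without Rictor-null Tfh replicate 2 or either WT Tfh array (0.148 to 0.245) and the Th1 call without Rictor-null Th1 replicate 1 (0.07). Cblb, a ubiquitin ligase that restrains activation, passed only in the mean of both contrasts; it read 1361 and 1372 in Rictor-null Tfh against 1503 and 1523 in WT Tfh cells, and in the other cell type 1240 and 1199 in Rictor-null Th1 against 1359 and 1390 in WT Th1 cells, without overlap within a cell type. Its mean difference was -0.16 (SE 0.0384, adjusted p = 0.0177 by limma), and the mean over its probe sets did not pass (adjusted p = 0.775). Ptpn6, Cbl, Dgka and Dgkz passed in no contrast.

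**Figure D2:**
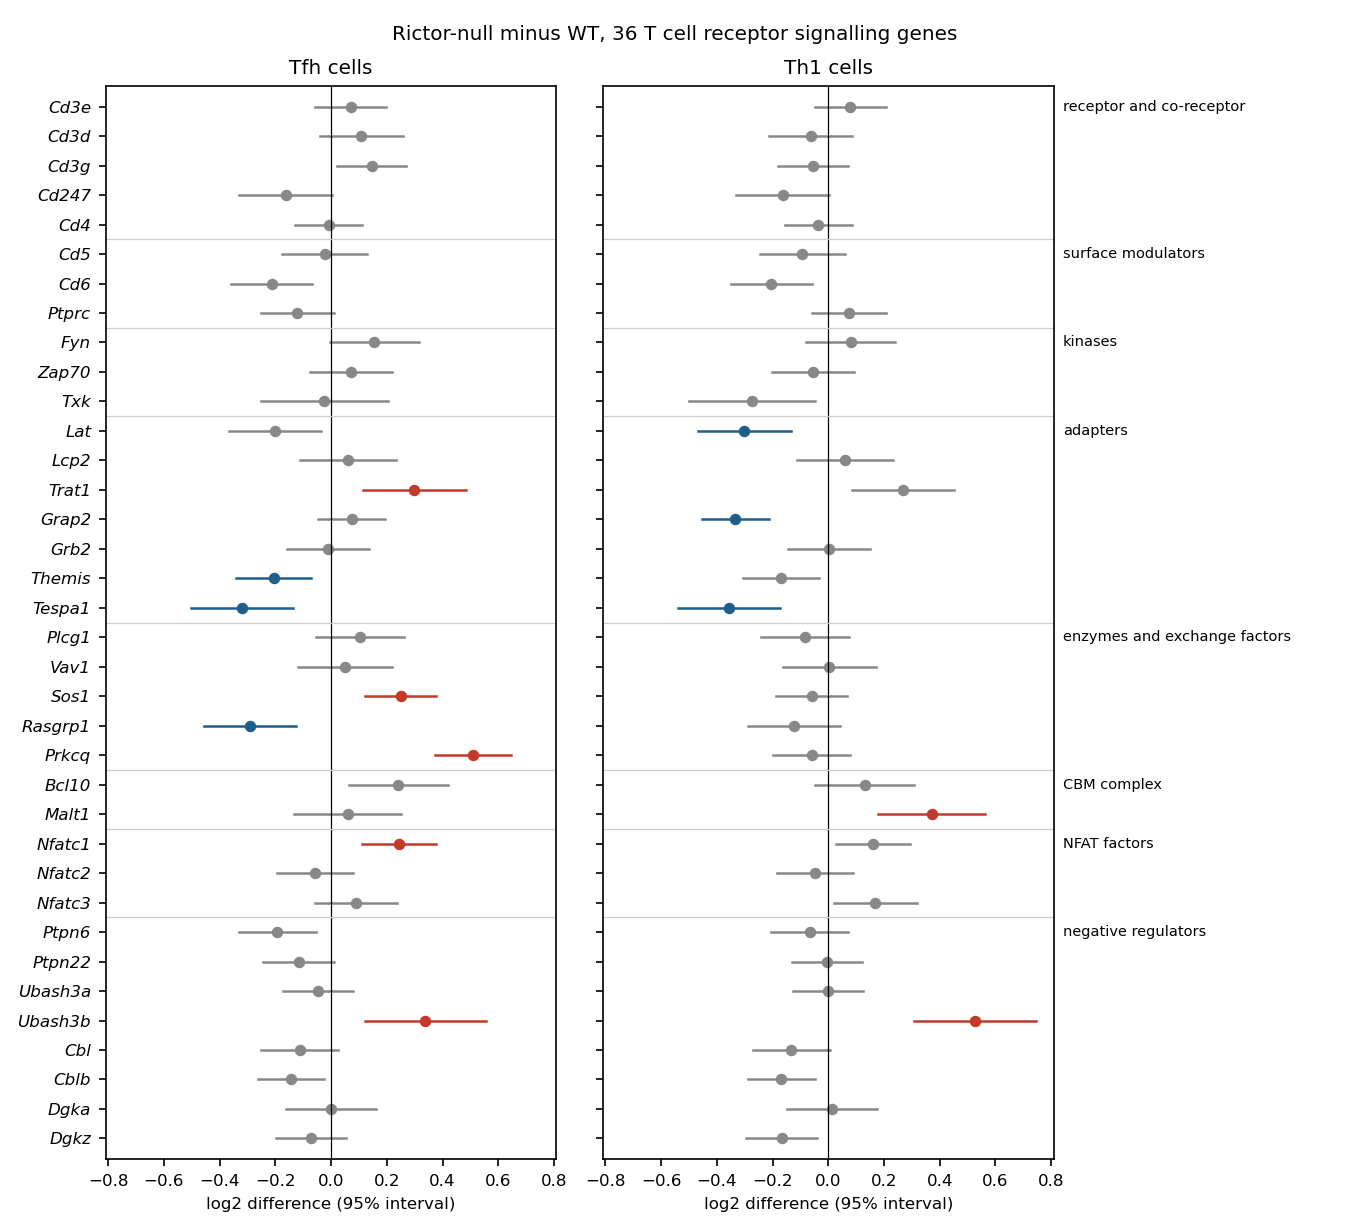
Difference of Rictor-null minus WT on the log2(signal + 32) scale for 36 members, in Tfh cells (left) and Th1 cells (right); points are differences of 2-array means, bars are 95% intervals from limma, and red and blue mark members that passed as higher or lower. Prkcq stands out at 0.51 in Tfh cells and lies at -0.06 in Th1 cells, while Ubash3b is to the right and Tespa1 to the left in both.

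Averaged over both cell types, 13 of the 36 members differed between the genotypes, 6 higher and 7 lower in Rictor-null cells, which is 36.1% beside 17.1% of all genes (13.1% higher, 3.92% lower) and 17.2% of the brightest 25% of genes. All 4 Rictor-null arrays were above all 4 WT arrays in 3 members (9.49% of all genes) and below them in 5 (3.54%). The median was -0.013 over the members and 0.019 over all genes. The rises were in Ubash3b (0.43), Trat1 (0.28), Prkcq (0.23), Malt1 (0.21), Nfatc1 (0.20) and Bcl10 (0.19), and the falls in Tespa1 (-0.34), Lat (-0.25), Rasgrp1 (-0.21), Cd6 (-0.21), Themis (-0.19), Cblb (-0.16) and Grap2 (-0.13). By role, 4 of 7 adapters fell and 1 rose, both members of the Bcl10 and Malt1 pair rose, and none of the 5 receptor and co-receptor genes or the 3 kinases passed. Bcl10 read 1132 and 1178 in Rictor-null Tfh against 973 and 971 in WT Tfh cells, and in the other cell type 1034 and 1257 in Rictor-null Th1 against 1036 and 1042 in WT Th1 cells; the genotypes were apart in Tfh cells and overlapped in Th1 cells, with a mean difference of 0.19 (SE 0.0568, adjusted p = 0.0467 by limma). The calls of Lat, Trat1, Tespa1, Prkcq and Ubash3b held in all 18 other settings. For Prkcq and Grap2 the mean joins 2 contrasts that differed. Quantile normalization gave 4 rises and 11 falls and scaling by the median 7 and 6. The total of 13 calls, rises and falls together, dropped to 7 without WT Tfh replicate 1 and to 6 without WT Tfh replicate 2. It was 8 without Rictor-null Th1 replicate 2 and 8 without WT Th1 replicate 2.

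Several single arrays ended calls of this mean. Grap2 was lost without any 1 array other than Rictor-null Tfh replicate 2 (adjusted p 0.0562 to 0.146, limma), Themis without either WT Tfh array, Rictor-null Th1 replicate 2 or WT Th1 replicate 1 (0.0527 to 0.0676), and Rasgrp1 without either WT Tfh array, Rictor-null Th1 replicate 1 or WT Th1 replicate 2 (0.0607 to 0.0912). Bcl10 was lost without Rictor-null Tfh replicate 2, either WT Tfh array, Rictor-null Th1 replicate 2 or either WT Th1 array (0.083 to 0.139). Malt1 was lost without Rictor-null Tfh replicate 2, either WT Tfh array, either Rictor-null Th1 array or WT Th1 replicate 2 (0.052 to 0.134). Cblb was lost without either WT Tfh array, Rictor-null Th1 replicate 2 or WT Th1 replicate 2 (0.0573 to 0.0895).

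**Figure D3:**
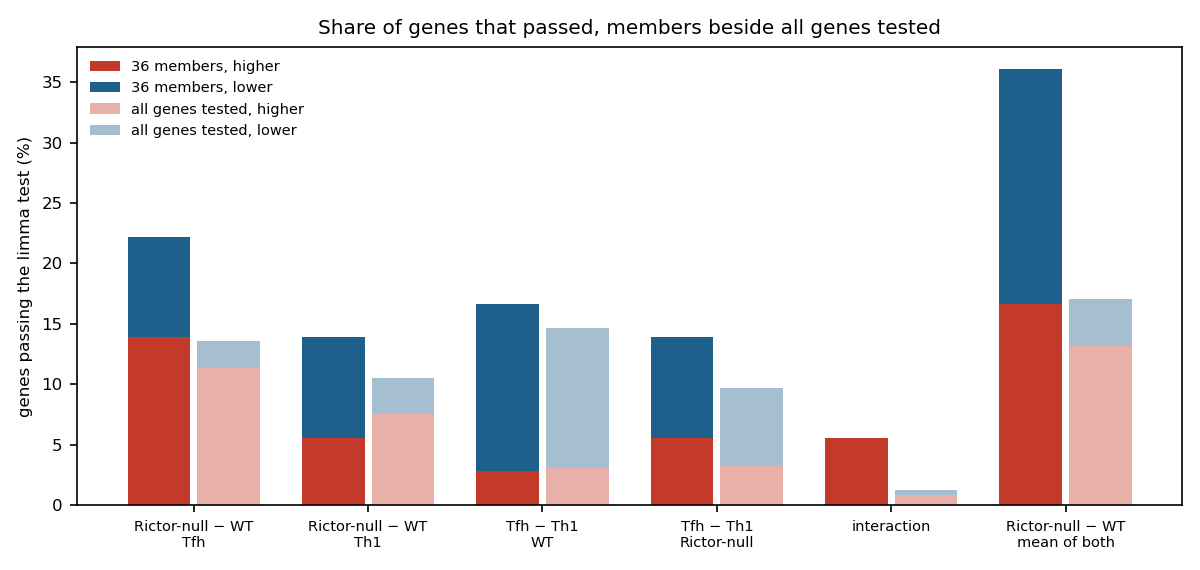
Percent of genes that passed the limma test in each contrast, for the 36 members (dark bars) beside all 11217 genes tested (pale bars), with genes higher in the first-named group in red and lower in blue. The members' bar is at 36.1% beside 17.1% in the mean genotype contrast and at 16.7% beside 14.7% between the cell types in WT mice.

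Between the cell types, 6 of the 36 members differed in WT mice, 1 higher and 5 lower in Tfh cells, which is 16.7% beside 14.7% of all genes (3.08% higher, 11.6% lower); in Rictor-null mice 5 differed, 2 higher and 3 lower, which is 13.9% beside 9.67% (3.27% higher, 6.4% lower). In WT mice the pairs did not overlap in 8 members with Tfh higher (19.7% of all genes) and in 17 with Tfh lower (48%), and in Rictor-null mice in 12 (21.3%) and 9 (28%). The medians over the members were -0.063 and -0.012, and over all genes -0.057 and -0.012. With each array divided by its median the Rictor-null split was 1 higher and 5 lower. Each of these contrasts shares arrays with the genotype contrasts (the WT Tfh arrays enter both the genotype contrast in Tfh cells and the cell type contrast in WT mice), so their calls are not separate evidence.

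Trat1 was the member that differed between the cell types in the same direction in both genotypes. Prkcq passed in both with opposite signs. The signals of Trat1, given above, were 461 to 639 on the 4 Tfh arrays and 837 to 1084 on the 4 Th1 arrays, without overlap. The difference was -0.87 in WT (SE 0.0829, 1.83-fold, adjusted p = 0.000175 by limma) and -0.84 in Rictor-null cells (1.79-fold, adjusted p = 0.000137). A second probe set gave -0.79 and -0.49. These 2 contrasts share no array, and over the 36 members 26 had the same sign in both (Pearson r 0.66, Spearman correlation 0.47 across genes), beside 61.7% same sign and r 0.40 over all genes.

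In WT mice Grap2 was lower in Tfh than in Th1 cells by 0.32 (adjusted p = 0.00553, limma), Sos1 by 0.31 (adjusted p = 0.00798) and Prkcq by 0.23 (adjusted p = 0.0359); in Rictor-null mice the differences of Grap2 (0.09) and Sos1 (-0.0044) did not pass, and Prkcq there was higher in Tfh cells by 0.34 (adjusted p = 0.00638). Plcg1, the phospholipase at the Lat complex, read 935 and 892 in WT Tfh against 1119 and 1050 in WT Th1 cells, and in the other genotype 923 and 1050 in Rictor-null Tfh against 1047 and 995 in Rictor-null Th1 cells. The cell types were apart in WT and overlapped in Rictor-null mice, and the WT difference was -0.24 (SE 0.0715, adjusted p = 0.0483 by limma). Ptpn22, a phosphatase that acts on Lck and Zap70, read 1496 and 1463 in WT Tfh against 1262 and 1233 in WT Th1 cells, and in the other genotype 1323 and 1403 in Rictor-null Tfh against 1261 and 1226 in Rictor-null Th1 cells. All 4 Tfh arrays were above all 4 Th1 arrays, and the WT difference was 0.24 (adjusted p = 0.0229, limma). In WT mice the Prkcq and Ptpn22 calls were lost without any 1 of the 4 WT arrays (0.125 to 0.188 and 0.0927 to 0.17), Plcg1 without any 1 array other than the Rictor-null Tfh pair (0.068 to 0.251), Grap2 without either WT Tfh array or WT Th1 replicate 1 (0.0517 to 0.0698) and Sos1 without either WT Tfh array or WT Th1 replicate 2 (0.0532 to 0.0909). Without either WT Tfh array 1 member passed, Trat1.

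In Rictor-null mice the kinase Fyn, which like Lck acts at the receptor, read 1836 and 1730 in Tfh against 1434 and 1508 in Th1 cells, and in WT mice 1664 and 1535 against 1310 and 1472. The Tfh arrays were the higher ones in both genotypes, by 0.27 in Rictor-null cells (SE 0.0723, adjusted p = 0.0397 by limma). Zap70 and Txk, the other kinases tested, passed in no contrast. Malt1 was lower in Rictor-null Tfh than in Rictor-null Th1 cells by 0.47 (adjusted p = 0.00717, limma), with the signals given above. Ubash3a, the relative of Ubash3b found mainly in lymphocytes, read 204 and 215 in Rictor-null Tfh against 250 and 243 in Rictor-null Th1 cells, and in the other genotype 223 and 212 in WT Tfh against 248 and 246 in WT Th1 cells. All 4 Tfh arrays were below all 4 Th1 arrays, and the Rictor-null difference was -0.21 (adjusted p = 0.0446, limma); a probe set with a lower mean, chosen after its values were seen, gave -0.47 (adjusted p = 0.00441) and in WT mice -0.40 (adjusted p = 0.0126). Without Rictor-null Th1 replicate 2 the Prkcq call in Rictor-null mice had an adjusted p of 0.0586, and without Rictor-null Th1 replicate 1 the Malt1 call had 0.0864. Fyn was lost without Rictor-null Tfh replicate 1, either WT Tfh array or either Rictor-null Th1 array (0.065 to 0.223), and Ubash3a without any 1 of the 8 arrays (0.0531 to 0.212).

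**Figure D4:**
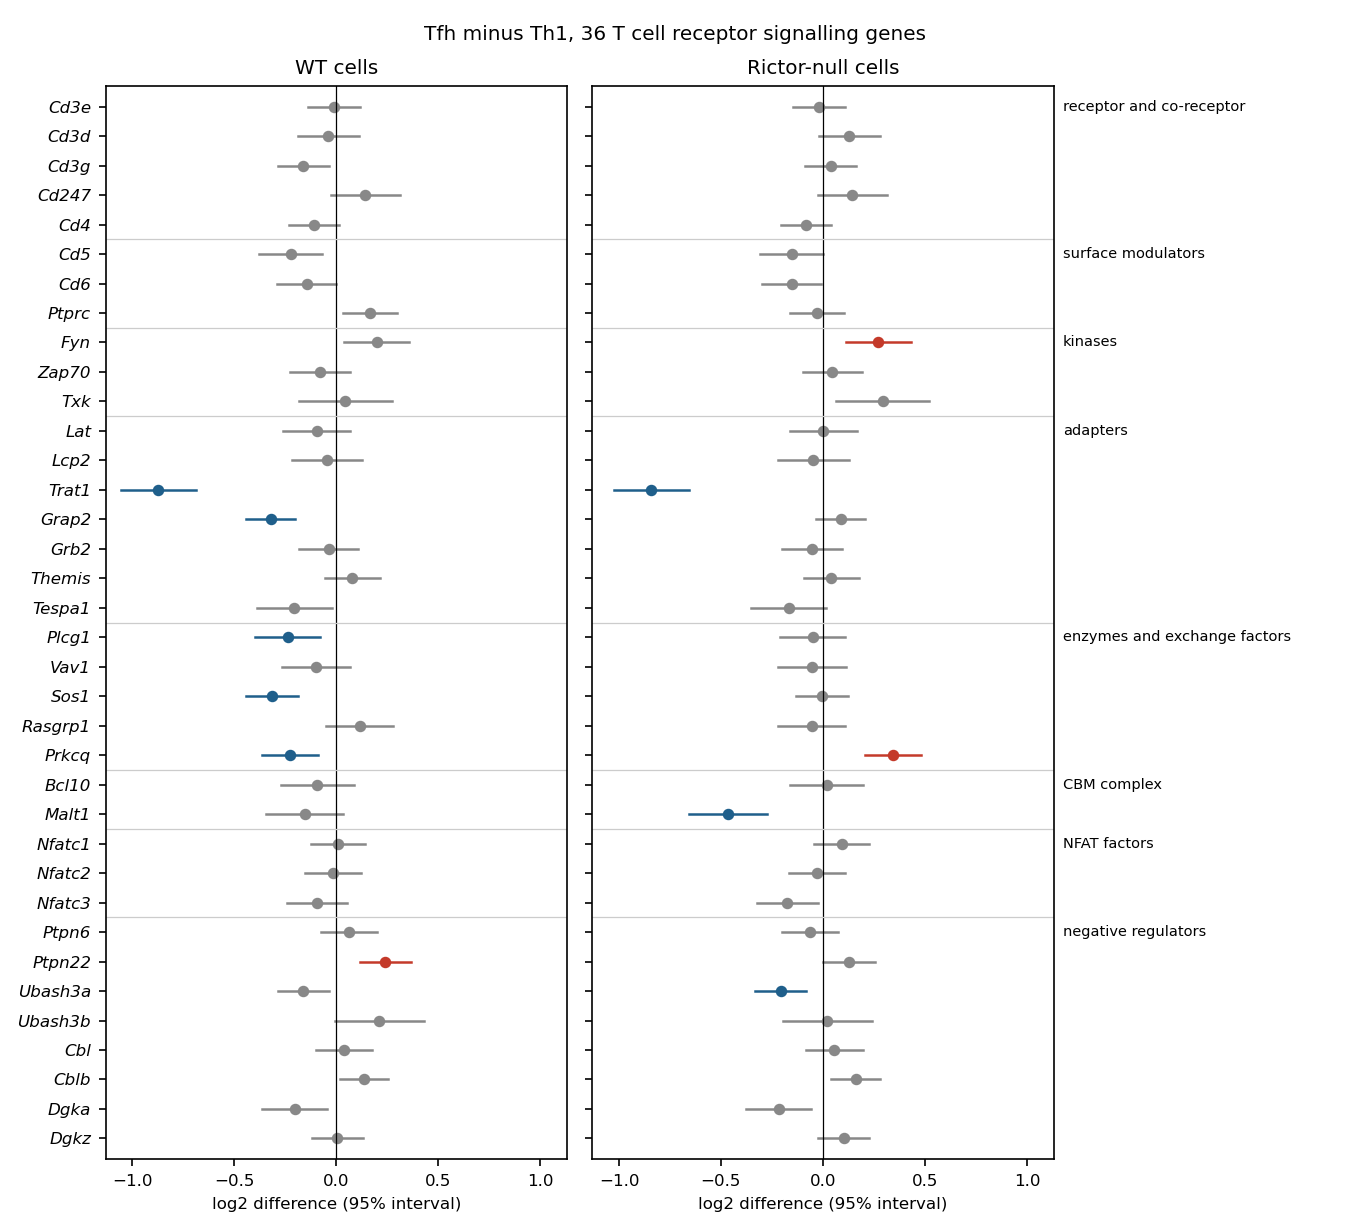
Difference of Tfh minus Th1 on the log2(signal + 32) scale for 36 members, in WT (left) and Rictor-null cells (right); points are differences of 2-array means, bars are 95% intervals from limma, and red and blue mark members that passed as higher or lower in Tfh cells. Trat1 lies at -0.87 and -0.84, and Prkcq at -0.23 in WT and 0.34 in Rictor-null cells.

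The NFAT factors differed by probe set. Nfatc1 had no called cell type difference by its brightest probe set, whereas a dimmer one, with a mean of 183, was higher in Tfh than in Th1 cells by 0.37 in WT (adjusted p = 0.0148, limma over all probe sets kept) and by 0.62 in Rictor-null mice (adjusted p = 0.000805). Nfatc2 passed nowhere. A second probe set of Nfatc3, with a mean of 998, rose in Rictor-null Th1 cells by 0.29 (adjusted p = 0.0272), where the brightest gave 0.17. Among members called in Tfh cells by genotype, 7 had other probe sets, and 13 of these 14 probe sets had the same direction, 4 of them called; in Th1 cells 6 of 6 had it.

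The 18 members that passed in no contrast differed by -0.19 (Ptpn6) to 0.15 (Cd3g) between the genotypes in Tfh cells and by -0.27 (Txk) to 0.17 (Nfatc3) in Th1 cells. A 95% interval within 1.5-fold in either direction was found for 35 of the 36 members in each genotype contrast, beside 96.1% of all genes in Tfh and 95.4% in Th1 cells. On the log2(signal + 32) scale, used for these folds, the only member beyond 1.5-fold in any contrast was Trat1, between the cell types. The genotype difference of Ubash3b in Th1 cells was 1.44-fold (0.53) on this scale. Over the other settings it ran from 0.38 to 0.67.

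Larger genotype differences were found among other genes of the pathway, a list of 145 genes of which 117 were tested. The list was chosen with earlier results of these data known, so its shares describe the listed genes only. In Tfh cells 19 of the 117 rose and 4 fell, beside 11.3% and 2.28% of all genes. In Th1 cells 12 rose and 5 fell, beside 7.54% and 2.97%. The largest falls were in Dtx1, a ubiquitin ligase linked to T cell anergy, by 1.05 in Tfh (adjusted p = 1.7e-05, limma) and by 0.97 in Th1 cells (adjusted p = 2.2e-05), and Pag1, the adapter that brings Csk to the membrane to restrain Lck and Fyn, fell by 0.55 and by 0.52. Spry1, an inhibitor of Ras signalling, rose by 0.67 in Tfh (adjusted p = 0.000384) and by 0.89 in Th1 cells (adjusted p = 4.43e-05). Its relative Spred2 rose by 0.69 in Tfh cells and Spry2 by 0.50 in Th1 cells (adjusted p = 3.51e-05 and 0.000228). The calls of Dtx1, Pag1, Spry1, Spred2 and Spry2 named here held in every other setting in which they were tested.

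The remaining genes picked by size rested on less. The brightest probe set of Pik3cd, a PI3 kinase subunit, was lower by 0.95 in the Tfh cells of Rictor-null mice (adjusted p = 0.00427, limma), but another with a mean of 820 rose by 0.45 (adjusted p = 0.00213), and the mean of its probe sets gave an adjusted p of 0.99. Inpp4b, a lipid phosphatase, rose in Tfh cells by 0.76 (adjusted p = 0.0154), and this was lost without either WT Tfh array and with no filter (0.0642). Peli1, a ubiquitin ligase, rose in Th1 cells by 0.41 (adjusted p = 0.0333) and Dgkd, a diacylglycerol kinase, fell by 0.28 (adjusted p = 0.0217), and both were lost without either Rictor-null Th1 array or WT Th1 replicate 1; Peli1 also without either WT Tfh array and Dgkd without WT Th1 replicate 2. With all arrays kept, the Peli1 call was also lost with either other pseudocount, no filter or the mean of its probe sets. Without single arrays, adjusted p for the lost calls was 0.0892 to 0.0985 for Inpp4b, 0.0598 to 0.219 for Peli1 and 0.0527 to 0.149 for Dgkd.

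Between the cell types, 6 of the 117 were higher and 11 lower in Tfh cells in WT mice, beside 3.08% and 11.6% of all genes. In Rictor-null mice 7 were higher and 6 lower, beside 3.27% and 6.4%. Vav3, a relative of the exchange factor Vav1, was lower in Tfh cells by 0.47 in WT (adjusted p = 0.00111, limma) and by 0.60 in Rictor-null mice (adjusted p = 0.000151), in every other setting as well. In WT mice Sit1, an inhibitory adapter, was lower by 0.46 (adjusted p = 0.0042) and Rcan3, a calcineurin regulator, by 0.40 (adjusted p = 0.00949), and Pik3cd, Wipf1 and Tec were higher by 0.93, 0.48 and 0.29. In Rictor-null mice Tec, a kinase that acts on Plcg1, was higher by 0.41 (adjusted p = 0.0014), Pik3r1 by 0.48 (adjusted p = 0.00862) and Inpp4b by 0.66 (adjusted p = 0.0336), and Spry1 and Pag1 were lower by 0.44 and 0.36. Leaving out 1 array ended the WT calls of Pik3cd and Wipf1 (WT Tfh replicate 1, adjusted p 0.0744 and 0.0565), Sit1 (WT Tfh replicate 2, 0.0506), Rcan3 (WT Tfh replicate 1 or WT Th1 replicate 1, 0.078 and 0.117) and Tec (any 1 WT array, 0.053 to 0.121), and the Rictor-null calls of Spry1 (Rictor-null Th1 replicate 1, 0.0774), Pik3r1 (the same array, 0.0997) and Inpp4b (any 1 Tfh array or either Rictor-null Th1 array, 0.0583 to 0.23). The mean of their probe sets also ended the WT call of Pik3cd (0.0991) and the Rictor-null call of Pik3r1 (0.0643). Of the settings that keep all arrays 5, that mean among them, ended the Rictor-null call of Inpp4b (adjusted p up to 0.419).

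Marker lists moved with some groups. The Tfh list (8 of 8 genes above the filter) summed to 5946 to 6072 in Rictor-null Tfh against 4090 to 4194 in WT Tfh cells, and to 4282 to 4448 in Rictor-null Th1 against 3186 to 3274 in WT Th1 cells. Its sum was thus higher on the Rictor-null arrays of each cell type. All 8 of its genes rose in Rictor-null Tfh cells, among them the transcriptional regulator Tox2 by 1.12, the cytokine Il21 by 0.80, the inhibitory receptor Pdcd1 by 0.77 and the chemokine receptor Cxcr5 by 0.49. In Th1 cells 6 of the 8 rose. The summed signal of the regulatory T cell list (3 of 4 genes above the filter) was 1988 to 2048 in Rictor-null Tfh, 1171 to 1172 in WT Tfh, and for Th1 cells 1336 to 1460 (Rictor-null) and 892 to 939 (WT); Foxp3, its defining gene, was below the filter at 16.9 to 41.5, and most of the sum was Ikzf2. The myeloid list (5 of 10 genes above the filter, Cst3 the brightest) summed to 847 to 997 on the Rictor-null and 769 to 790 on the WT arrays. The natural killer list summed to 884 to 1236 on the Tfh and 112 to 143 on the Th1 arrays, and its only gene above the filter was Eomes, which T cells also express. Of the CD8 T cell list, Cd8b1 read 58.3 and 62.5 in Rictor-null Tfh against 45.2 and 43.3 in WT Tfh cells. It rose there by 0.28 (adjusted p of 0.011, limma). Cd8a did not pass in any contrast. The part of these markers in the members' differences was not tested. In these bulk samples fewer cells of a type and less RNA per cell cannot be told apart.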

How the data were processed

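Gene expression was measured with biotin-labelled cRNA from 100 ng of total RNA on 8 arrays. The values deposited by the authors are probe set intensities on a linear scale; the submitters' processing notes name MAS5 and RMA without role or order, and do not give the scaling between arrays. Depth does not apply to arrays; their number limits the precision.

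Values were transformed as log2(signal + 32), 32 being the pseudocount. Symbols came from the platform annotation: 34945 of 45037 probe sets had 1 symbol, 932 several and 9160 none. A probe set was kept when 2 or more of its 8 values exceeded the median of their array, and the brightest of each gene was tested, 11217 genes in all. A model with 1 mean per group was fitted with limma 3.58.1 in R 4.3.3 (lmFit, eBayes), with Benjamini-Hochberg adjustment over all genes; results for other probe sets were adjusted over all 23725 kept. The fit was tested on simulated data. Alternatives changed the scaling, pseudocount, filter, probe set summary, array weights, variance trend, a replicate block, the arrays fitted and the arrays left out.

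The labels call the arrays biological replicates of pooled mice, and p-values measure only the spread between such pools. The members and gene lists were chosen with earlier results of these data known. Per-array signals are printed for every member called in at least 1 contrast and for the CD3 chains and Cd4; of the other pathway genes, up to 3 called genes with the largest rise and fall per contrast are named. Additional probe sets and Cd5 were named after their values were seen. The labels do not say whether replicate numbers pair the arrays, and the main fit has no block. Same-numbered arrays of 2 groups deviated with correlations of -0.515 to 0.277. With 2 arrays per group these cannot show whether arrays of different groups came from the same mice. Promoter sequences were taken from RefSeq (GRCm38.p6).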

Additional observations from a re-analysis of the deposited data

Results flagged for a closer look

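For Prkcq both Rictor-null Tfh arrays lay above both WT Tfh arrays, which held for 39.9% of all genes. Both Rictor-null Th1 arrays lay below both WT Th1 arrays, as in 27.7% of all genes, with the nearest at 1571 and 1574. The Th1 difference of -0.06 did not pass (adjusted p = 0.598 by limma). The genotype difference of Prkcq was not the same in the 2 cell types. The difference between the Tfh and Th1 contrasts was 0.570 on the log2 scale (adjusted p = 0.0138 by limma, 8 arrays). Leaving out either WT Tfh array, either Rictor-null Th1 array or WT Th1 replicate 2 gave adjusted p of 0.0556 to 0.0944.

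The same difference for Grap2 was 0.409 (adjusted p = 0.0309 by limma), with both WT Th1 arrays above the other 6. It was lost without any 1 array other than Rictor-null Tfh replicate 1 (adjusted p 0.0659 to 0.196), with the larger pseudocount tried and with a replicate block.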

How the results depend on the processing

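No member's called difference changed sign under any setting run. The numbers of members called moved as follows. In the genotype contrast in Tfh cells (8 called), quantile normalization and a pseudocount of 1 gave 5, no filter 3 and the replicate block 4; in Th1 cells (5 called), quantile normalization gave 8 and no filter 3. Between the cell types in WT mice (6 called), division by the array median and a fit of only the arrays compared gave 10, the mean of probe sets 11 and array weights 13; in Rictor-null mice (5 called), a pseudocount of 1, array weights, the replicate block and the fit of only the arrays compared gave 3. Of the 2 calls of the difference between the genotype contrasts, the larger pseudocount tried and the replicate block gave 1. In the paired analysis with the replicate number as a block the other counts were 5 for genotype in Th1 cells, 4 between the cell types in WT mice and 10 for the mean genotype contrast. The labels do not say whether the numbers pair the arrays. Leaving out 1 array gave 1 to 7 members for genotype in Tfh cells, 2 to 8 in Th1 cells, 1 to 11 between the cell types in WT and 2 to 5 in Rictor-null mice, 0 to 4 for the difference (with 3 to 6 members at an unadjusted p under 0.05 in limma where the count was 0) and 6 to 13 for the mean; the lowest counts came without a WT Tfh array, except for genotype in Th1 cells and the cell types in Rictor-null mice, where they came without a Rictor-null Th1 array, and the difference, which also reached 0 without either Rictor-null Th1 array or WT Th1 replicate 2. Of the 11 settings that keep all arrays, 8 ended the Tfh genotype call of Themis, 7 that of Ubash3b and 6 that of Trat1; 6 ended the Rictor-null cell type calls of Fyn and Ubash3a, 5 the WT call of Plcg1, and 6 and 4 the mean genotype calls of Bcl10 and Malt1. Background correction could not be varied, and with 2 arrays per group a lone array was assumed to vary like the other groups.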
